A study of Homo sapiens with 6 samples.

Results

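The feedback targets of Wnt and beta-catenin signalling were followed as 10 genes: AXIN2, LEF1, TCF7, TCF7L1, SP5, NKD1, NOTUM, ZNRF3, RNF43 and LGR5. They were taken by gene symbol from a table of read counts for 63677 genes. Each symbol named 1 row, and all 10 genes passed the filter on low counts. The samples came from a pair of human embryonic stem cell lines, which the labels name Royan H6 (here RH6) and Royan H5 (here RH5). The naive state had been reached with a treatment labelled 2a2iL, after which the cells were grown in 2iL medium and split with trypsin. Primed cells grew with bFGF in the medium, and cells of either state sat on inactivated mouse embryonic fibroblasts. There were 2 naive RH6 libraries (passage 10), 2 naive RH5 libraries (passage 17), 1 primed RH6 library (passage 20) and 1 primed RH5 library (passage 16). State and medium changed together and cannot be told apart, and passage numbers differed between the groups as well. Nothing in the labels says that duplicate naive libraries came from separate cultures. The p-values therefore reflect the spread among the libraries alone, and the part of it between duplicates could be technical.

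Without a Wnt signal, a complex of axin, APC, casein kinase and GSK3 marks beta-catenin for destruction. A Wnt ligand, or a compound that blocks GSK3, lets beta-catenin accumulate and work with the TCF/LEF factors on DNA. Many genes switched on this way act back on the pathway, and their transcripts are widely used as its readout. In pluripotent cells TCF7L1 acts mainly as a repressor, and in mouse embryonic stem cells GSK3 inhibition relieves that repression. The name 2iL usually stands for a MEK inhibitor, a GSK3 inhibitor and LIF. The labels do not list its contents, so this composition is background and not a fact of these samples.

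Total counts were 13457979 to 14663982 per library, and TMM scaling factors were 0.964 to 1.029. Levels are given as CPM, the unit of read counts set to a common library size, with those factors applied. Of 9 pluripotency markers none was at 0 in any library, and their summed level was 8175 to 10480 CPM in naive and 11990 to 13100 CPM in primed libraries. In naive cells 0 of them were higher and 4 lower (SOX2, DPPA4, SALL4 and PODXL). Of 9 tested naive markers 7 were higher and 0 lower in naive cells, with sums of 258 to 300.5 CPM in naive and 91.3 to 103 CPM in primed libraries. These sums came mostly from TFAP2C and KLF5. KLF17, called higher, had at most 1.34 CPM in any library. KLF4 (log2 fold change -0.23 ± 0.17, adjusted p = 0.3579) and TFCP2L1 (-0.09 ± 0.21, adjusted p = 0.8030) did not pass. ESRRB was not tested, with 11 counts over the naive and 13 over the primed libraries. Of the naive markers DPPA5 was at 0 in all 4 naive libraries and in primed RH6, and KLF17 was at 0 in naive RH6 replicate 1 and in both primed libraries. Of 7 tested primed markers 0 were higher and 6 lower in naive cells, with sums of 730 to 966 CPM in naive and 2319 to 2591 CPM in primed libraries. CD24 was at 0 in all 6 libraries, and whether the annotation used could count its reads was not tested. Over all tested genes 12.1% were higher and 13.6% lower in naive cells.

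The promoters of SP5 and RNF43, the members with the largest naive-over-primed fold changes, are shown beside that of TCF7L1. TCF7L1 was called lower in naive cells over both lines. Each is the 250 bases before the transcription start in RefSeq's table for GRCh38.p14, on the gene's strand, and capitals mark the TCF/LEF core motifs CTTTGAT and CTTTGAA on either strand.
SP5: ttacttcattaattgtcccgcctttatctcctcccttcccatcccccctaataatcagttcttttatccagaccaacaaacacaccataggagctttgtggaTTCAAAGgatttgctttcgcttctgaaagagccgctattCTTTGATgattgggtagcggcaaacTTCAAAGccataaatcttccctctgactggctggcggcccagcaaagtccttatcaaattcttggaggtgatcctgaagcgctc
RNF43: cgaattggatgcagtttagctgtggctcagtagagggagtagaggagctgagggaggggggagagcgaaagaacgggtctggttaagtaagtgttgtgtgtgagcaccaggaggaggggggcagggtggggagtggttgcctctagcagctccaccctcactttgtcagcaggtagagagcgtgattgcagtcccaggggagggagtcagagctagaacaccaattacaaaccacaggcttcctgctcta
TCF7L1: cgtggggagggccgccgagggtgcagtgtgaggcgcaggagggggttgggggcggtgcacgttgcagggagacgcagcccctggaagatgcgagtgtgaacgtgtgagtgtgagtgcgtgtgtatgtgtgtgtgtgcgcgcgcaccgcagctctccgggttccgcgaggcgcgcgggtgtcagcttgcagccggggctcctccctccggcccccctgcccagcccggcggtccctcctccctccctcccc
The SP5 sequence lies at chr2:170715087-170715336 on the plus strand. The RNF43 sequence lies at chr17:58417535-58417784 on the minus strand, and the TCF7L1 sequence at chr2:85133142-85133391 on the plus strand. RNF43 has another start in the same source, whose window at chr17:58402722-58402971 is not printed and held 0 motifs. The SP5 window held 3 motifs, beginning 148, 109 and 84 bases before the start. CTTTGAT was read once on the gene's strand, and CTTTGAA was read on the opposite strand at the other positions, where it prints as TTCAAAG. Of the 35116 promoters in the table, 2.26% held CTTTGAT, 3.8% held CTTTGAA and 5.94% held either. The table had 7 windows for 5 of the genes (LEF1, RNF43, SP5, TCF7 and TCF7L1), and the SP5 window was the 1 of 7 with a motif. A window without these letters says nothing about TCF/LEF binding elsewhere at the gene. AXIN2, NKD1, NOTUM, ZNRF3 and LGR5 are named only.

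Naive against primed cells was the study's main contrast, fitted over the 6 libraries with a term for the line. Of the 10 genes, 6 were higher in naive cells: SP5, RNF43, NKD1, AXIN2, TCF7 and LEF1. TCF7L1 was the 1 gene lower in naive cells, and NOTUM, ZNRF3 and LGR5 did not pass an adjusted p of 0.05. Over all 19434 tested genes, 12.1% were called higher and 13.6% lower. The median log2 fold change was 1.27 over the 10 genes and -0.01 over all tested genes. All 4 naive values lay above both primed values for 7 of the genes, which 21.5% of tested genes did. All naive values lay below both primed ones for TCF7L1, which 22.9% of tested genes did.

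**Figure D1:**
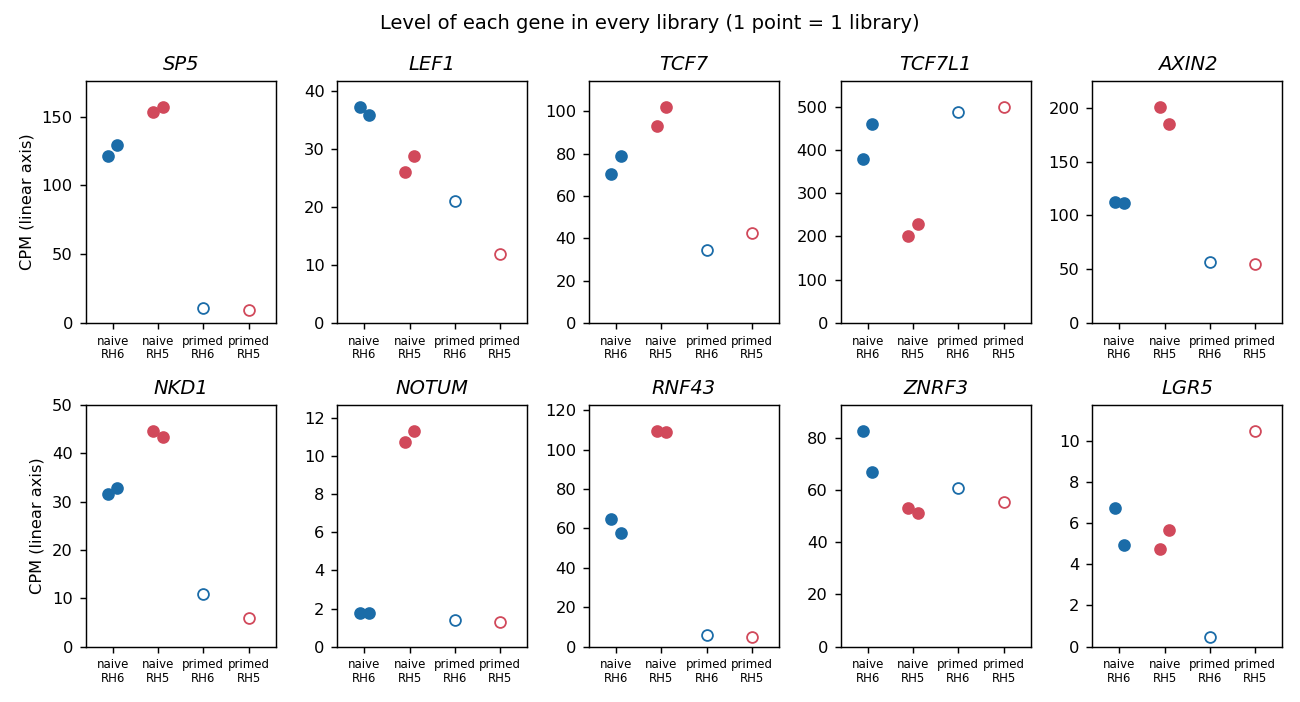
Level of each of the 10 genes (y axis, CPM, linear, a scale of its own in each panel) in every library, with naive libraries as filled and primed libraries as open points, and RH6 in blue and RH5 in red. SP5 and RNF43 show the widest gap between the states, TCF7L1 runs the other way, and LGR5 has its lowest and its highest value in the 2 primed libraries.

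SP5 (ENSG00000204335), a zinc finger transcription factor and a direct target of beta-catenin, had 122 and 130 CPM in naive RH6 and 153 and 157 CPM in naive RH5 libraries, against 10.9 CPM in primed RH6 and 9.20 CPM in primed RH5. The states did not overlap, and the lowest naive library stood far above the higher primed library. The log2 fold change of naive over primed, ± SE, was 3.79 ± 0.17 (adjusted p = 6.63e-05), with a 95% interval of 3.39 to 4.19. Leaving out any 1 library kept the call.

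The TCF/LEF factors, which carry beta-catenin on DNA, moved apart. LEF1 (ENSG00000138795), mostly an activator, had 37.3 and 35.8 CPM in naive RH6 and 26.1 and 28.8 CPM in naive RH5 libraries, against 21.1 CPM in primed RH6 and 11.9 CPM in primed RH5. Its states did not overlap, although naive RH5 replicate 1 came close to the primed RH6 library. The log2 fold change was 0.99 ± 0.15 (adjusted p = 0.0041), and the adjusted p was 0.0753 when duplicate naive libraries were added together within each line.

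TCF7 (ENSG00000081059), also an activator in its full-length form, had 70.2 and 78.9 CPM in naive RH6 and 92.9 and 102 CPM in naive RH5 libraries, against 34.6 CPM in primed RH6 and 42.6 CPM in primed RH5. Every naive library was well above both primed libraries, and the log2 fold change was 1.15 ± 0.11 (adjusted p = 7.90e-04). SKP1, which runs on the opposite strand and shares 210 exon bases with TCF7 in GENCODE 29, had a log2 fold change of 0.31 (adjusted p = 0.0599). The strand setting of the counting is not given in the sources used here.

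TCF7L1 (ENSG00000152284), the repressor, had 380 and 460 CPM in naive RH6 and 201 and 228 CPM in naive RH5 libraries, against 488 CPM in primed RH6 and 499.9 CPM in primed RH5. The naive RH5 libraries were far below the primed ones, and naive RH6 replicate 2 was just below them. Its log2 fold change was -0.75 ± 0.22 (adjusted p = 0.0470). Without any 1 naive library the call was lost (adjusted p = 0.0528 to 0.1413), while the log2 fold change stayed between -0.86 and -0.62. The call was also lost without the line term (-0.64, adjusted p = 0.2141) and with duplicates added together within each line (-0.71, adjusted p = 0.2160). Without the primed RH5 library the log2 fold change was -0.19 (adjusted p = 0.3421).

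TCF7L2 (ENSG00000148737), the fourth gene of the family, was followed for comparison. It had 138 and 142 CPM in naive RH6 and 94.7 and 108 CPM in naive RH5 libraries, against 196 CPM in primed RH6 and 209 CPM in primed RH5. Its log2 fold change was -0.77 ± 0.14 (adjusted p = 0.0091). Both genes of the family with the higher levels per length were thus called lower in the contrast over both lines, although TCF7L1 did not pass within RH6. To compare levels between the 4 genes, CPM were divided by the length of all annotated exons, which was 4414 bases for TCF7L1, 6736 for TCF7L2, 10063 for TCF7 and 5361 for LEF1. These lengths come from GENCODE 29 on another build and count every annotated exon, so the shares are approximate. On this scale TCF7L1 made up 71.5% and 74.5% of the family's summed level in naive RH6 and 61.8% and 62.1% in naive RH5 libraries, against 75.2% in primed RH6 and 75.1% in primed RH5. LEF1 and TCF7 together made up 11.6% and 10.4% in naive RH6 and 19.1% and 18.6% in naive RH5 libraries, against 5.02% in primed RH6 and 4.28% in primed RH5. TCF7L1 thus had the highest level per length of the family in every library.

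**Figure D2:**
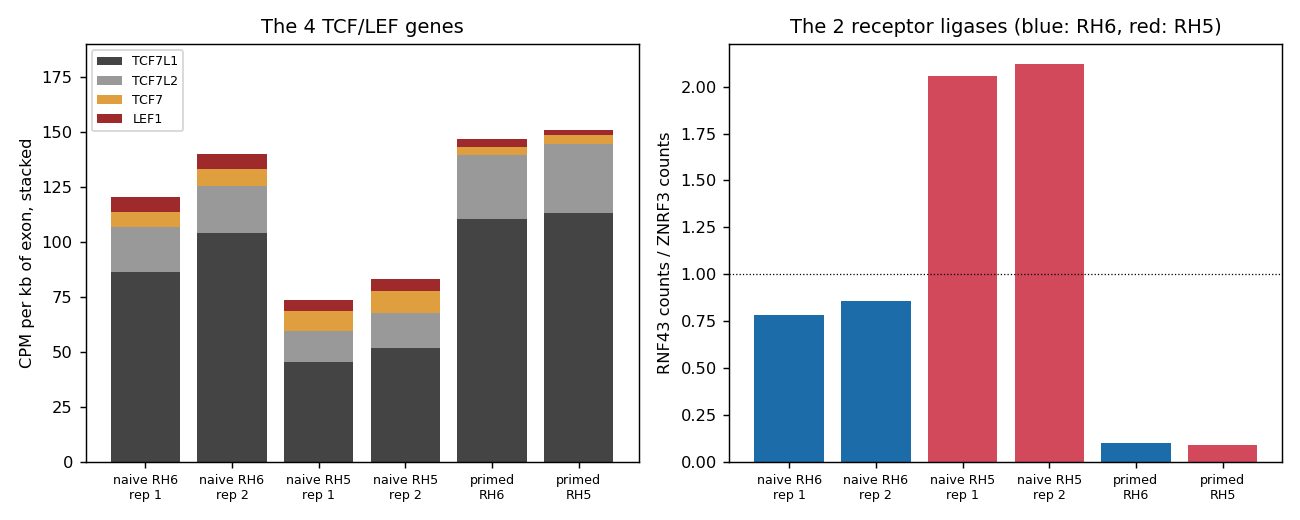
Left, levels of TCF7L1, TCF7L2, TCF7 and LEF1 (y axis, CPM per kb of exon, stacked) in each library; the TCF7L1 level is lowest in the 2 naive RH5 libraries. Right, RNF43 counts divided by ZNRF3 counts in each library, with the dotted line at 1; the ratio is near 0.1 in both primed libraries and above 2 only in naive RH5.

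Among the feedback inhibitors inside the cell, AXIN2 (ENSG00000168646), the inducible scaffold of the beta-catenin destruction complex, had 112 CPM in both naive RH6 libraries and 201 and 185 CPM in naive RH5 libraries. It had 56.7 CPM in primed RH6 and 54.8 CPM in primed RH5. The primed libraries were nearly level, and the naive RH5 libraries stood above the naive RH6 ones. Its log2 fold change was 1.38 ± 0.20 (adjusted p = 0.0033).

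NKD1 (ENSG00000140807), which binds Dishevelled and dampens the signal, had 31.6 and 32.8 CPM in naive RH6 and 44.7 and 43.3 CPM in naive RH5 libraries, against 10.9 CPM in primed RH6 and 6.01 CPM in primed RH5. All naive libraries were above both primed ones, and the log2 fold change was 2.15 ± 0.30 (adjusted p = 0.0028). Its paralog NKD2 had a log2 fold change of -0.36 ± 0.31 (adjusted p = 0.4486), with 1.42 to 2.06 CPM in naive and 1.88 to 2.54 CPM in primed libraries.

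NOTUM (ENSG00000185269), a secreted enzyme that strips the lipid from Wnt ligands, had few counts outside naive RH5. It had 25 and 24 counts in naive RH6 and 152 in each naive RH5 library, against 21 counts in primed RH6 and 18 in primed RH5. These were 1.75 and 1.77 CPM in naive RH6 and 10.8 and 11.4 CPM in naive RH5 libraries, against 1.41 CPM in primed RH6 and 1.30 CPM in primed RH5. The naive RH5 libraries stood apart, and the naive RH6 libraries lay just above the primed ones. The log2 fold change over both lines was 1.72 ± 0.60 (adjusted p = 0.0775), which did not pass. It passed with DESeq2 (1.59, adjusted p = 0.0308), without the filter on low counts (1.74, adjusted p = 0.0049) and without the primed RH6 library (3.08, adjusted p = 2.54e-05). Without the primed RH5 library it was 0.35 (adjusted p = 0.4944), and under the other 7 alternatives it was 1.54 to 2.23 and did not pass.

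RNF43 and ZNRF3 encode paralogous membrane ubiquitin ligases that clear Frizzled receptors from the cell surface. RNF43 (ENSG00000108375) had 64.6 and 57.4 CPM in naive RH6 and 109.6 and 109 CPM in naive RH5 libraries, against 5.97 CPM in primed RH6 and 4.92 CPM in primed RH5. The states did not overlap, and the log2 fold change was 3.88 ± 0.27 (adjusted p = 2.27e-04). SUPT4H1, which shares 143 exon bases with RNF43 on the same strand in GENCODE 29, had 321 to 354 counts in naive and 359 to 365 counts in primed libraries (log2 fold change -0.05, adjusted p = 0.8015). TSPOAP1-AS1, on the opposite strand, shares 1521 exon bases with RNF43 and had 21 to 36 counts in naive and 15 counts in each primed library (0.95, adjusted p = 0.0657). RNF43 itself had 780 to 1549 counts in naive libraries, against 89 counts in primed RH6 and 68 in primed RH5.

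ZNRF3 (ENSG00000183579) had 82.9 and 67.0 CPM in naive RH6 and 53.3 and 51.3 CPM in naive RH5 libraries, against 60.9 CPM in primed RH6 and 55.4 CPM in primed RH5. Its states overlapped, with naive RH6 highest and naive RH5 lowest. The log2 fold change was 0.10 ± 0.14 (adjusted p = 0.6306), with a 95% interval of -0.23 to 0.44. The interval leaves room for a modest change in either direction. The ratio of RNF43 to ZNRF3 counts was 0.78 and 0.857 in naive RH6 and 2.06 and 2.12 in naive RH5 libraries, against 0.098 in primed RH6 and 0.0889 in primed RH5. Because the genes differ in length, the ratio compares libraries and not the levels of both genes.

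LGR5 (ENSG00000139292), a receptor for R-spondins and a stem cell marker of the intestine, had 96 and 67 counts in naive RH6 and 67 and 76 in naive RH5 libraries, against 7 counts in primed RH6 and 145 in primed RH5. These were 6.73 and 4.93 CPM in naive RH6 and 4.74 and 5.68 CPM in naive RH5 libraries, against 0.470 CPM in primed RH6 and 10.5 CPM in primed RH5. The naive libraries lay close together, between the primed libraries of the 2 lines. The log2 fold change over both lines was 0.43 ± 0.85 (adjusted p = 0.7557) and depended on which primed library was kept. It was -1.01 (adjusted p = 0.0093) without primed RH6 and 3.64 (adjusted p = 9.13e-05) without primed RH5. LGR4, a related receptor, had 119 and 114 CPM in naive RH6 and 160 and 183 CPM in naive RH5 libraries, against 367 CPM in primed RH6 and 224 CPM in primed RH5. Its log2 fold change was -1.07 ± 0.26 (adjusted p = 0.0233). LGR6 had under 1 CPM in every library (log2 fold change -0.82 ± 0.56, adjusted p = 0.3289).

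The contrast was also made within each line, where the naive duplicates set the spread and a single primed library was taken to vary as much as they did. With the line term, the fits above without 1 primed library also rest on the state effect of the other line alone. They are therefore not separate evidence from the contrasts within the lines. In RH6, 7 of the 10 genes were higher in naive cells (SP5, RNF43, LGR5, NKD1, TCF7, AXIN2 and LEF1) and 0 lower, by edgeR and by DESeq2; of the other 3 genes, 0 were lower at an unadjusted p below 0.05 by edgeR. Over all tested genes 16.4% were higher and 17.2% lower in naive RH6. TCF7L1 (log2 fold change -0.22 ± 0.14, adjusted p = 0.2655), NOTUM (0.32 ± 0.36, adjusted p = 0.5358) and ZNRF3 (0.30 ± 0.15, adjusted p = 0.1460) did not pass there. Without naive RH6 replicate 2, TCF7L1 (-0.36, adjusted p = 0.0482) and ZNRF3 (0.45, adjusted p = 0.0188) passed in RH6.

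In RH5, 7 genes were higher in naive cells (SP5, RNF43, NKD1, NOTUM, AXIN2, TCF7 and LEF1) and 2 lower (TCF7L1 and LGR5). Over all tested genes 16.5% were higher and 17% lower in naive RH5. ZNRF3 was the 1 gene that did not pass (-0.08 ± 0.15, adjusted p = 0.7016). The median log2 fold change of the 10 genes was 1.05 in RH6 and 1.51 in RH5.

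**Figure D3:**
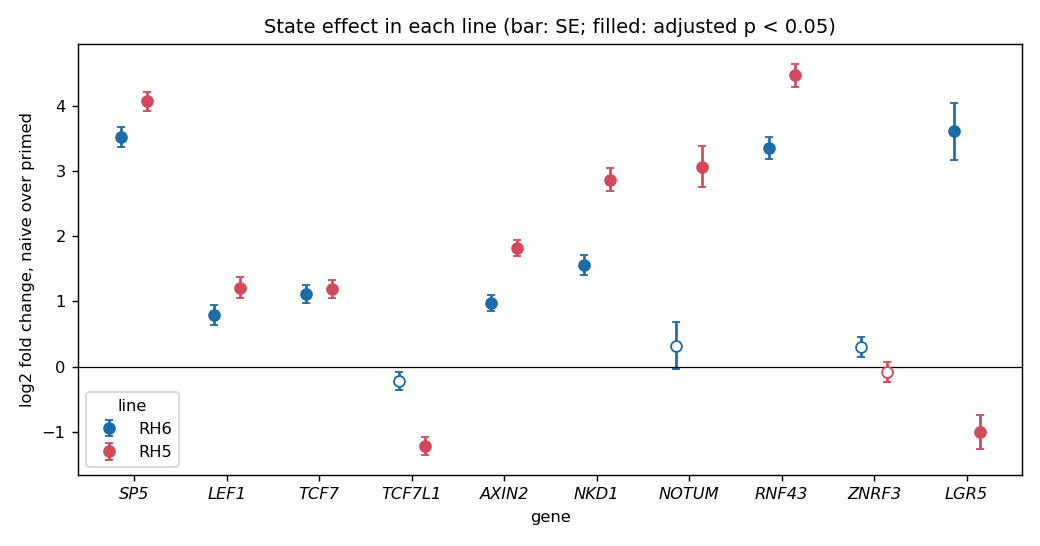
Log2 fold change of naive over primed (y axis, bars are SE) for each gene within RH6 (blue) and RH5 (red), with filled points for adjusted p below 0.05. For 6 genes both lines are called higher; NOTUM is called in RH5 alone, and the LGR5 points lie on opposite sides of 0.

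Whether the state effect differed between the lines was tested as the effect in RH6 minus that in RH5, and 6 of the 10 genes passed, against 12.0% of all tested genes. AXIN2 had a smaller effect in RH6 (log2 fold change 0.98 ± 0.12) than in RH5 (1.82 ± 0.13), a difference of -0.83 ± 0.17 (adjusted p = 0.0098). RNF43 had log2 fold changes of 3.35 ± 0.17 in RH6 and 4.47 ± 0.18 in RH5, a difference of -1.12 ± 0.25 (adjusted p = 0.0159). For NKD1 they were 1.56 ± 0.15 in RH6 and 2.87 ± 0.17 in RH5, a difference of -1.31 ± 0.23 (adjusted p = 0.0047). These feedback inhibitors thus had the smaller naive-over-primed effect in RH6.

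NOTUM followed with a difference of -2.76 ± 0.50 (adjusted p = 0.0061), after a log2 fold change of 3.07 ± 0.32 in RH5 (adjusted p = 5.23e-05). TCF7L1 was lowered in RH5 (-1.22 ± 0.14, adjusted p = 9.15e-05), and its difference was 1.01 ± 0.20 (adjusted p = 0.0096). LGR5 was higher in naive RH6 (3.61 ± 0.44, adjusted p = 1.51e-04) and lower in naive RH5 (-1.01 ± 0.26, adjusted p = 0.0133), a difference of 4.62 ± 0.52 (adjusted p = 3.94e-04). With DESeq2 the fall in naive RH5 had an adjusted p of 0.1243.

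The other 4 genes did not pass this test. SP5 had log2 fold changes of 3.52 ± 0.15 in RH6 and 4.07 ± 0.15 in RH5, and the difference had a 95% interval of -1.0 to -0.11 and an adjusted p of 0.1055. The intervals of the difference were -0.50 to 0.34 for TCF7, -0.89 to 0.06 for LEF1 and -0.08 to 0.84 for ZNRF3.

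Between the naive lines, 3 genes were higher in naive RH6 than in naive RH5 and 6 lower. Over all tested genes 12.0% were higher and 13.5% lower in naive RH6. The higher ones were TCF7L1 (log2 fold change 0.97 ± 0.12), ZNRF3 (0.52 ± 0.12) and LEF1 (0.42 ± 0.12). The lower ones were NOTUM (-2.64 ± 0.23), RNF43 (-0.84 ± 0.10), AXIN2 (-0.79 ± 0.09), NKD1 (-0.45 ± 0.11), TCF7 (-0.39 ± 0.10) and SP5 (-0.30 ± 0.09). LGR5 did not pass (0.17 ± 0.23). DESeq2 called 5 of these genes in place of 9, leaving out LEF1, TCF7, SP5 and NKD1. The passage numbers of the naive lines also differed, and line and passage cannot be told apart.

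Between the primed lines there was 1 library each and so no test. Primed RH6 over primed RH5 was 0.0447 for the LGR5 level, 1.81 for NKD1 and 1.78 for LEF1, and 0.811 to 1.21 for the other 7 genes. In primed RH6 the 14 markers of primitive streak and mesendoderm summed to 96.5 CPM, against 345.5 CPM in primed RH5. The same list summed to 556 and 568 CPM in naive RH6 and 293 and 312 CPM in naive RH5 libraries. KDR was the largest part of the sum in every library. It had 75.1 CPM in primed RH6 and 229.5 CPM in primed RH5, 251 and 253 CPM in naive RH6, and 93.3 and 98.4 CPM in naive RH5. Of the list's 12 tested genes, 10 were higher and 2 lower in naive RH6 than in primed RH6. In naive RH5, 4 of the list were higher than in primed RH5 (T, MIXL1, EOMES and GATA4) and 6 lower, SOX17 and KDR among them. The shares over all tested genes were 16.4% higher and 17.2% lower in RH6, and 16.5% and 17% in RH5. SOX17, an endoderm factor named here after its values were seen, had 2.59 and 2.94 CPM in naive RH6 against 0.805 CPM in primed RH6, and 0.849 and 0.299 CPM in naive RH5 against 7.53 CPM in primed RH5. MESP2 was at 0 in both primed libraries, and no other marker of that list was at 0 anywhere. LGR5 had its lowest and its highest level in the 2 primed libraries. SOX17 was lowest in naive RH5 replicate 2, and the marker sum was highest in naive RH6. LHX1, FOXA2 and GATA6 were, like LGR5, lowest in primed RH6 and highest in primed RH5. LHX1 had 0.738 CPM in primed RH6 and 13.1 CPM in primed RH5. T, MIXL1, EOMES, GSC, GATA4, KDR, MESP1 and MESP2 had their highest level in a naive library. TBX6 was highest in primed RH6, and CXCR4 was highest in primed RH5 but lowest in naive RH5. The part of streak and mesendoderm cells in the LGR5 result was not tested. In bulk samples, a change in the number of cells of a type and a change in RNA per cell cannot be told apart.

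The rest of the pathway was read from a list of 49 tested components and paralogs, without WNT, FZD, SFRP and DKK genes. Of these, 6 were higher in naive cells, 12 lower and 31 did not pass. Their median log2 fold change was -0.08 against -0.01 over all tested genes, of which 12.1% were higher and 13.6% lower. CTNNB1, which encodes beta-catenin, had 461 to 559 CPM in naive and 439 to 453 CPM in primed libraries (log2 fold change 0.23 ± 0.12, adjusted p = 0.1931). GSK3B, the kinase of the destruction complex, had 203 to 210 CPM in naive and 169 to 182 CPM in primed libraries (0.24 ± 0.09, adjusted p = 0.1120). AXIN1, the constitutive scaffold, had 25.7 to 33.6 CPM in naive and 24.2 to 29.3 CPM in primed libraries (0.14 ± 0.16, adjusted p = 0.5683). These transcripts of the core machinery did not pass the test.

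Among the called genes of the list, WLS, which carries Wnt ligands to the cell surface, had 138 to 244 CPM in naive and 15.4 to 34.9 CPM in primed libraries (log2 fold change 2.88 ± 0.41, adjusted p = 0.0033). DACT1, a binder of Dishevelled, had 65.1 to 102 CPM in naive and 16.8 to 27.9 CPM in primed libraries (1.88 ± 0.29, adjusted p = 0.0044). RSPO2, an R-spondin ligand, had 5.59 to 13.5 CPM in naive and 0.869 to 3.49 CPM in primed libraries (2.20 ± 0.59, adjusted p = 0.0346). Another R-spondin, RSPO4, had 0.280 to 0.523 CPM in naive and 5.50 to 6.84 CPM in primed libraries (-3.92 ± 0.32, adjusted p = 3.79e-04). TLE2, a Groucho co-repressor of TCF factors, had 7 counts over the 4 naive libraries and 158 over the 2 primed ones (-5.35 ± 0.34, adjusted p = 1.61e-04). APC2, a paralog of APC, had 1.99 to 3.75 CPM in naive and 12.6 to 27.1 CPM in primed libraries (-2.81 ± 0.36, adjusted p = 0.0022). When duplicates were added together within each line, 3 of the list were higher and 4 lower.

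A second list held 40 other genes described as beta-catenin targets in at least some tissues, of which 37 were tested. In naive cells 20 were higher, 4 lower and 13 did not pass, with a median log2 fold change of 1.25. Over all tested genes 12.1% were higher and 13.6% lower. Within RH6, 22 of the list were higher and 8 lower (16.4% and 17.2% of all tested genes). Within RH5, 24 of the list were higher and 5 lower (16.5% and 17% of all tested genes). When duplicates were added together within each line, 13 were higher and 1 lower, and without the primed RH5 library 8 were lower. Many of these genes are also markers of early lineages. The list was chosen with earlier results of these data known.

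Among them, T (brachyury), a primitive streak factor, had 40.9 to 60.6 CPM in naive libraries, against 0.470 CPM in primed RH6 and 1.96 CPM in primed RH5 (log2 fold change 5.34 ± 0.47, adjusted p = 5.43e-04). MIXL1, another streak factor, had 41.5 to 86.5 CPM in naive libraries, against 0.939 CPM in primed RH6 and 2.97 CPM in primed RH5 (5.02 ± 0.22, adjusted p = 6.63e-05). The caudal homeobox gene CDX1 had 558 counts over the naive libraries and 2 over the primed ones, and CDX2 had 308 over the naive and 3 over the primed ones. Each of these 4 genes was under 3 CPM in both primed libraries.

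The 4 lower genes were HHEX, EPHB2, CYP26A1 and MYCN. HHEX, an endoderm homeobox gene, had 0.0736 to 0.707 CPM in naive and 12.0 to 13.0 CPM in primed libraries (-5.03 ± 0.40, adjusted p = 3.79e-04). The others had log2 fold changes of -2.07 ± 0.38 for EPHB2 (adjusted p = 0.0085), -1.60 ± 0.32 for CYP26A1 (adjusted p = 0.0114) and -1.06 ± 0.17 for MYCN (adjusted p = 0.0057). CCND1, a cell cycle gene often named as a target and chosen here after its values were seen, had a log2 fold change of 0.03 ± 0.11 (adjusted p = 0.8588).

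**Figure D4:**
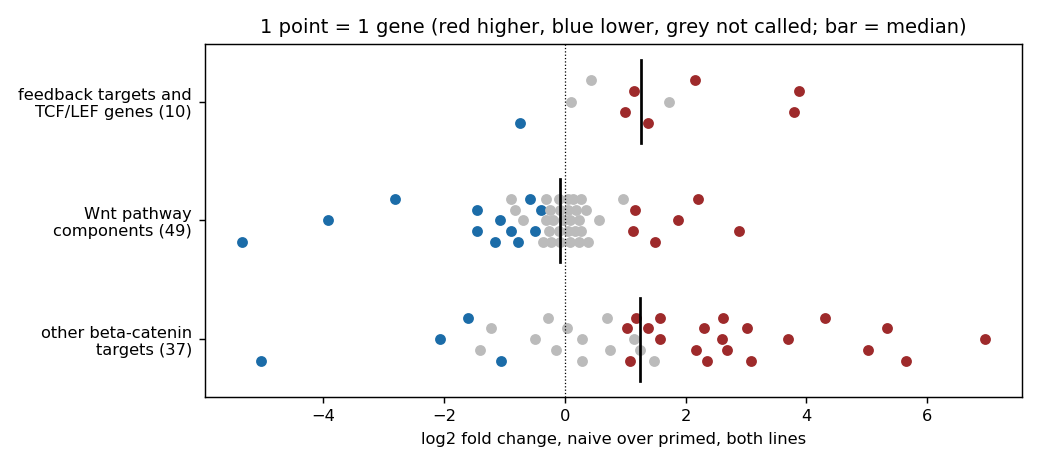
Log2 fold change of naive over primed over both lines (x axis) for the 10 genes, 49 pathway components and 37 other targets, 1 point per gene, in red where called higher, blue where called lower and grey otherwise; black bars are medians, at 1.27, -0.08 and 1.25. The vertical spread is only for legibility, and the far right points are CDX1 and CDX2, whose fitted fold rests on 2 and 3 primed counts.

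Markers of other cell types also differed between the states, where 12.1% of all tested genes were higher and 13.6% lower in naive cells. Fibroblast markers, which feeder cells could supply, summed to 624 to 1167 CPM in naive and 274 to 321 CPM in primed libraries, and 7 of 11 tested were higher and 0 lower in naive cells. Of that list DCN was at 0 in naive RH6 replicate 2, and FAP in naive RH5 replicate 1 and primed RH6. Trophoblast markers summed to 466 to 506 CPM in naive and 95.5 to 168 CPM in primed libraries, with 4 of 7 tested higher and 1 lower. That sum came mostly from KRT18, which had 347.5 to 406 CPM in naive and 78.2 to 153 CPM in primed libraries. Of the trophoblast list XAGE2 was at 0 in all 6 libraries, and CGA, CGB and ELF5 in both primed ones. CGB was also at 0 in naive RH6 replicate 2 and both naive RH5 libraries, and CGA and TP63 in naive RH6 replicate 2. VGLL1 was at 0 in both naive RH6 libraries and in primed RH6. Over the 4 naive libraries CGB had 1 count, ELF5 and VGLL1 had 8 each, and CGA had 48. Whether the annotation used could count XAGE2 reads was not tested. Of 8 tested neural markers 0 were higher and 6 lower, and their sum of 570 to 1086 CPM in naive and 598 to 1021 CPM in primed libraries came mostly from NES. HES5 was at 0 in 3 of the naive libraries. The part of these cells in the results for the 10 genes was not tested.

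For AXIN2 and SP5, the genes whose log2 CPM ran most like theirs over the 6 libraries were found among all 19424 other tested genes. For AXIN2 they were ZNF674-AS1 (Pearson r = 0.9994), WNT5B (0.9988) and RP2 (0.9986), and 551 genes had r above 0.95. For SP5 they were KDM6B (0.9998), HIC2 (0.9994) and WNT5A (0.9988), and 742 genes had r above 0.95. The 6 points share the split between naive and primed, so these values are a description only. WNT5A averaged 98.3 ± 10.6 CPM in naive libraries (SD, n = 4) and 14.9 CPM in primed libraries (n = 2).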

How the data were processed

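RNA from 6 libraries was sequenced with a stranded total RNA kit as paired reads, per the labels' protocols, although the labels' molecule field says polyA. The authors' deposited values are raw counts, 1 whole number per gene and library. The submitters' processing notes list the builds GRCh37.p5 and hg19 and the tools STAR 2.4.0a, featureCounts 1.4.5-p1, Subread, FastQC and DESeq2 without saying what each did. Neither the annotation nor the strand setting is given in the sources used here, so genes on opposite strands that share exons could share reads.

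Counts were tested with edgeR 4.0.16 in R 4.3.3 (quasi-likelihood F-test, TMM, Benjamini-Hochberg adjustment over all 19434 genes kept by filterByExpr, minimum count 10 and minimum total 15). Naive against primed was fitted with a line term and left 3 residual degrees of freedom. The contrasts within and between lines came from a fit of group means with 2 residual degrees of freedom. Calls needed an adjusted p below 0.05. Correlations were taken on log2 CPM (prior count 2). Where a listed symbol had several rows, the row with the most counts was used. Duplicates differed by more than counting noise (chi-square per gene 9.22 in naive RH6 and 5.76 in naive RH5) and were kept apart. DESeq2 1.42.0 and the other alternatives are in the closing section. The functions were tested on simulated data.

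The 10 genes and all lists were chosen with earlier results of these data known. By rule, the genes named outside the 10 are 7 fixed components, the largest called changes in each list in either direction, the genes most correlated with AXIN2 and SP5, and cell type markers at 0. CCND1, SOX17, KDR, KRT18 and NES were named after their values were seen. So were the streak markers set beside LGR5 or higher in naive RH5, and the pluripotency and naive markers not at 0. SKP1, SUPT4H1, TSPOAP1-AS1 and AC004805.1 were named because their annotated exons overlap those of TCF7, RNF43 or AXIN2. On the opposite strand, LEF1-AS1 shares 279 exon bases with LEF1, AC078860.1 shares 208 with LGR5 and AC007608.1 shares 67 with NKD1. Each of these 3 had at most 15 counts in any library. Exon lengths and overlaps are from GENCODE 29, promoters from RefSeq. Protein sequences were not used here.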

Additional observations from a re-analysis of the deposited data

Results flagged for a closer look

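The naive-over-primed effect differed between RH6 and RH5, by the edgeR test of the difference itself, for 6 of the 10 genes. The log2 difference, RH6 minus RH5, was -0.83 for AXIN2, -1.31 for NKD1, -2.76 for NOTUM and -1.12 for RNF43, where the effect was smaller in RH6. It was 1.01 for TCF7L1, where the fall was in RH5, and 4.62 for LGR5, where the effects had opposite signs. Each difference rests on 1 primed library per line. All 6 kept their call with DESeq2, with the RLE scaling, without the filter on low counts and without any 1 naive library.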

How the results depend on the processing

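The 10 genes gave 410 values under the alternatives. Of these, 379 kept direction and side of the threshold, 22 lost the call, 6 gained it and 3 changed sign. The cause was not tested for these, except that the design sets what is fitted without a primed library. In naive against primed, 5 to 9 of the 10 genes were called. Leaving out 1 library gave 6 to 9 of these genes and 2961 to 6704 of all genes, against 4996, with the lowest without naive RH5 replicate 1 and 3020 without naive RH6 replicate 2. Summing the naive libraries of each line, which leaves 1 residual degree of freedom, gave 1127. DESeq2 gave 4036 genes in place of 6528 within RH6, 3936 in place of 6506 within RH5, 1305 in place of 2337 for the difference between the lines, and 2856 in place of 4952 between the naive lines, where it called 5 of the 10 genes in place of 9. Sign changes came with 1 library left out: ZNRF3 ranged from -0.08 to 0.33 and LGR5 from -1.01 to 3.64 in naive against primed, and LGR5 between the naive lines from -0.08 to 0.37. In naive against primed they came without primed RH6. The effect then rests on RH5 alone, where the contrast within the line gave the same -0.08 for ZNRF3 and -1.01 for LGR5. Replicate numbers give 2 pairs of naive libraries and no stated shared source; their replicate differences correlated over genes at r = 0.14. With a replicate block, 9 of the 10 genes and 7404 of all genes were called between the naive lines, and without it 9 and 5034. Low depth limits NOTUM and LGR5, with 7 counts for LGR5 in primed RH6.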

Other observations

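Over the 6 libraries, the levels of SP5, RNF43, NKD1, TCF7 and AXIN2 (log2 CPM) ran together, with Pearson r of 0.92 to 0.99 between them. TCF7L1 and NOTUM ran in opposite directions (r = -0.98), and neither ZNRF3 nor LGR5 had an r above 0.52 with any of the other genes (lowest -0.59, ZNRF3 with NOTUM). These values are a description: the 6 points share the split between states and lines, and the NOTUM value rests on few counts.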
